A study of Danio rerio with 121 samples.

Results

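RNA of whole zebrafish (*Danio rerio*) embryos was compared between 48 and 72 hours post fertilization (hpf), the day in which embryos of this species usually hatch. The libraries were chosen by the stage in their titles, which gave 32 of the 121 libraries of the series, 16 at each stage. All came from untreated embryos of the strain RIKEN WT (RW), a wild-type line kept in a cycle of light and dark, and nothing but age separates the groups in the labels. They fall into library set 1, with numbered titles, and library set 2, with 8 libraries of each stage in each set. A sample table of the authors gives the sets different years and lists 50 as the number used for every library of set 1 and no number for set 2. The labels call the RNA that of a single embryo and the methods describe pools of embryos, with another number per pool than that table, so how many animals a library holds is not settled. No source says that the 8 libraries of a group came from separate clutches, and the p-values therefore measure the spread between these libraries, which may be technical.

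At 48 hpf the embryo still lies in its chorion. Cells of the hatching gland on the yolk sac store astacin-type metalloproteases, which are released to digest the inner layer of the chorion, and the gland cells are lost after hatching. Over the same day the retina gains its light-sensing photoreceptors, the liver and the exocrine pancreas grow and begin to make secreted proteins and digestive enzymes, the cartilages of the jaw and neurocranium extend, and many neural progenitors leave the cell cycle and form synapses. The stage comparison asks which of these transcript groups differ between the days.

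Between 1609176 and 21646478 counts per library were assigned to genes, with medians of 4210422 and 5922654 at 48 and 72 hpf in set 1 and of 3931182 and 4398616.5 in set 2. Levels are given as CPM, counts scaled to the library total after TMM normalization over the 32 libraries, and the TMM factors ran from 0.825 to 0.923 at 48 hpf and from 0.964 to 1.00 at 72 hpf in set 1, and from 0.955 to 1.155 at 48 hpf and from 1.054 to 1.198 at 72 hpf in set 2. Over the 8070 genes with a mean above 10 CPM the first principal component separated the stages and held 26.8% of the variance, and the second separated the sets and held 21.1%. The third separated replicate 1 of 72 hpf in set 2 from the rest, and the fourth separated replicates 5 and 6 of 48 hpf in set 2. List counts that moved by more than 1.5 times when these 3 libraries were left out are also given without them.

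Of the 18976 genes tested over both sets with library set in the model, 1874 (9.88%) were higher and 1568 (8.26%) lower at 72 hpf at an adjusted p under 0.05. With library totals in place of TMM, the median log2 fold change of all genes moved from 0.03 to 0.19, and the share of calls that were higher moved from 54.4 to 75.8%. In the rest of the text a gene is said to have risen or fallen only where the fit over both sets and the fit of each set alone passed this threshold in the same direction. By that rule 613 genes (3.23%) rose and 483 (2.55%) fell, among them 378 (1.99%) that rose and 138 (0.727%) that fell by at least 1 on the log2 scale. For 213 genes (1.12%) every library of 72 hpf lay above every library of 48 hpf in each set, and for 126 (0.664%) every one lay below. Lists of genes by tissue or process are described by how many tested members rose or fell and by their median log2 fold change, to be read against these shares of all genes and their median of 0.03. Where a list has 0 genes in a direction by edgeR, an unadjusted p under 0.05 in all 3 fits gave 0 or 1 there and DESeq2 0 or 1, except in 3 lists whose values are given with them. The size of the change differed between the sets for 223 genes (1.18%, edgeR interaction test), of which 37 were among the 1096 genes that rose or fell. Set 1 alone gave 4403 calls among 17856 genes tested and set 2 alone 1353 among 15560. Of the 1128 genes called in both, 32 changed in opposite directions. Libraries of set 2 were less alike. The mean correlation of a library with the others of its group ran from 0.884 to 0.949 in set 1 and from 0.803 to 0.857 in set 2. A gene that did not pass in set 2 is not thereby shown to be unchanged there. All fold changes compare 72 with 48 hpf on the log2 scale, from the fit over both sets unless a set is named. The ± after them is an approximate standard error (SE), the size of the change divided by the square root of its F statistic.

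**Figure D1:**
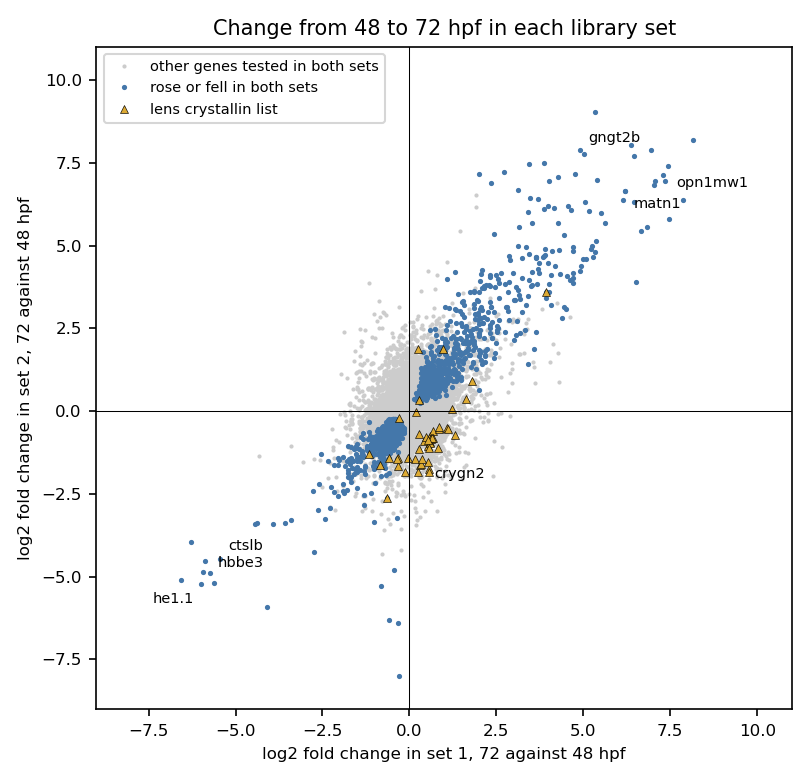
Log2 fold change from 48 to 72 hpf in set 1 (x axis) and in set 2 (y axis) for each gene tested in both sets. Blue points are the 1096 genes that rose or fell in both sets, grey points the other genes, and triangles the lens crystallin list, most of which lies to the right of 0 in set 1 and below 0 in set 2.

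The hatching enzyme *he1.1* had the largest fall under the rule for named genes. *he1.1* and *he1.2* encode proteases that soften the chorion, and both fell. In set 1 *he1.1* ranged from 619.9 to 930.5 CPM (median 798) at 48 hpf and from 4.95 to 15.5 (median 7.39) at 72 hpf. In set 2 it ranged from 1229 to 2311 CPM (median 1506) at 48 hpf and from 25.7 to 90.2 (median 32.8) at 72 hpf. The groups did not overlap in either set. The log2 fold change was -5.78 ± 0.21, a 55.1-fold lower level (adjusted p = 1.06e-27). *he1.2* ranged from 85.7 to 182 CPM (median 133) at 48 hpf and from 1.34 to 2.80 (median 1.62) at 72 hpf in set 1. Within set 2 it ranged from 207 to 527 CPM (median 294) at 48 hpf and from 7.92 to 34.0 (median 20.9) at 72 hpf. Its log2 fold change was -4.84 ± 0.23 (adjusted p = 1.32e-22). What remained at 72 hpf was higher in set 2 than in set 1 for both, and the fall was smaller in set 2, with log2 fold changes of -6.56 and -5.11 in sets 1 and 2 for *he1.1* (interaction adjusted p = 0.00159) and of -6.29 and -3.94 for *he1.2* (interaction adjusted p = 6.36e-07). The copies stand side by side in the RefSeq table and may share reads, so that their separate values are uncertain.

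*ctslb*, a cathepsin L-like cysteine protease known as a hatching gland gene, ranged from 755 to 1453 CPM (median 1171) at 48 hpf and from 15.5 to 32.8 (median 26.5) at 72 hpf in set 1. It ranged from 1567 to 3063 CPM (median 2058) at 48 hpf and from 73.0 to 155 (median 89.8) at 72 hpf in set 2, and fell by 4.96 on the log2 scale (SE 0.14, adjusted p = 1.92e-31). Of the 12 genes that fell most under the rule for named genes, 7 belong to 1 run of neighbours in RefSeq (assembly GRCz12tu) around *ctslb*. That run was drawn here from *si:dkey-239j18.2* to *zgc:174153*, which both fell, and holds 16 protein-coding genes. Of these, 8 are in the count table and all 8 fell, against 2.55% of all genes. Since the run was drawn around genes that fell, this count is not a test of the region. RefSeq gives 7 of the 8 the synonym ctsl, the exception being *si:dkey-239j18.3*. *zgc:174855* ranged from 194 to 437 CPM (median 363) at 48 hpf and from 3.52 to 8.06 (median 5.03) at 72 hpf in set 1. Across set 2 it ranged from 279 to 807 CPM (median 495) at 48 hpf and from 5.01 to 19.1 (median 14.2) at 72 hpf. Its log2 fold change of -5.60 ± 0.16 (adjusted p = 3.27e-31) was close to that of *he1.1*. *si:dkey-269i1.4* had medians of 333 and 5.62 CPM at 48 and 72 hpf in set 1 and of 519.6 and 17.6 CPM in set 2 (log2 fold change -5.29 ± 0.15). The other changes were -5.31 for *zgc:174154*, -3.85 for *si:dkey-239j18.3*, -3.85 for *si:dkey-26g8.5*, -3.67 for *si:dkey-239j18.2* and -3.35 for *zgc:174153*. These neighbours may share reads with *ctslb* and with each other, and their counts are not independent measurements.

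The hatching gland list, like the others, was written with earlier results of these data known. It had 11 tested members, of which 0 rose, 4 fell and 7 did not pass, with a median log2 fold change of -0.74 against 0.03 over all genes. Besides the 3 genes above only *npsn*, an astacin-family protease known from granulocytes, fell (-0.79 ± 0.16). Of the 7 that did not pass, *xbp1* (0.14 ± 0.09), *cd63* (0.09 ± 0.08) and *agr2* (0.30 ± 0.11) are secretory or regulatory genes that other tissues share. Others of the 7 had log2 fold changes at or below the list median of -0.74. By DESeq2, and likewise at an unadjusted p under 0.05 in all 3 fits, 5 members were lower. The list went from 0.332 ± 0.138% of the counts at 48 hpf to 0.0533 ± 0.0107% at 72 hpf (SD over 16 libraries per stage). The mean shares at 48 and 72 hpf were 0.213 and 0.0441% in set 1 and 0.451 and 0.0625% in set 2. An SD over 16 libraries, here and for the lists below, thus includes the difference between the sets. A further gene among the lowest, *BX322603.1*, had medians of 37.2 and 0.786 CPM at 48 and 72 hpf in set 1 and of 51.7 and 1.41 CPM in set 2 (log2 fold change -5.43 ± 0.21), and *si:ch73-21g5.7* changed by -3.49 ± 0.17. Neither is annotated with a role here. In RNA of whole embryos, fewer cells of a type and less RNA per cell cannot be told apart.

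**Figure D2:**
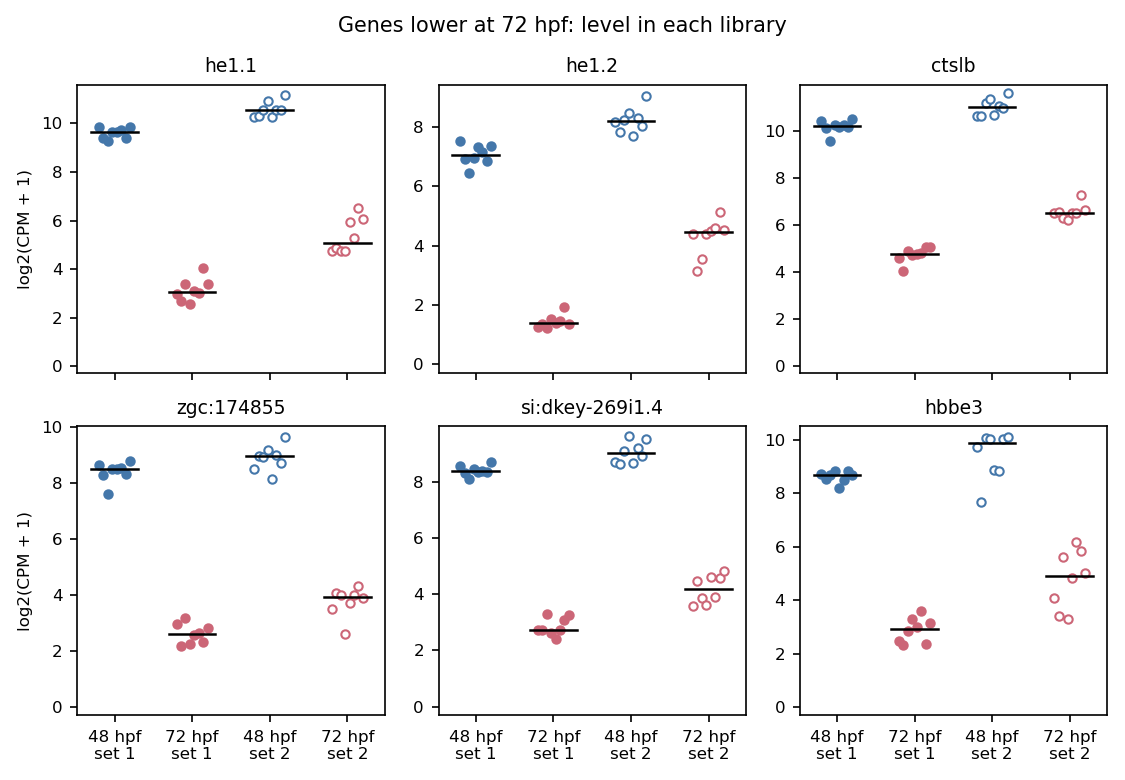
Level of 6 genes that fell, as log2(CPM + 1), in each library of 48 hpf (blue) and 72 hpf (red) of set 1 (filled) and set 2 (open). Lines mark group medians, and in each set no library of 72 hpf reaches one of 48 hpf for any of the 6 genes.

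Genes of the photoreceptors made up 7 of the 12 named for the largest rise. Of 65 tested members of the photoreceptor and phototransduction list 30 rose, 0 fell and 35 did not pass, against 3.23% of all genes that rose, and the median log2 fold change was 2.29. For 24 of the 65 every library of 72 hpf lay above every library of 48 hpf in both sets, against 1.12% of all genes. The list went from 0.0529 ± 0.00856% of the counts at 48 hpf to 0.497 ± 0.197% at 72 hpf. Among the visual pigments, the green-sensitive cone opsin *opn1mw1* ranged from 0.425 to 2.76 CPM (median 1.298) at 48 hpf and from 188 to 270.3 (median 202) at 72 hpf in set 1. For set 2 the range was from 0 to 4.31 CPM (median 1.61) at 48 hpf and from 114 to 611 (median 234) at 72 hpf, and its log2 fold change was 7.36 ± 0.25 (adjusted p = 1.58e-28). The ultraviolet opsin *opn1sw1* had medians of 2.43 and 548 CPM at 48 and 72 hpf in set 1 and of 4.404 and 436 CPM in set 2 and rose by 7.18 ± 0.24. The blue opsin *opn1sw2* rose by 6.87 ± 0.27, with medians of 1.36 and 198 CPM at 48 and 72 hpf in set 1 and of 1.98 and 224 CPM in set 2. The red opsin *opn1lw2* reached a median of 682 CPM in set 1 at 72 hpf, from 5.12 at 48 hpf, and rose by 7.01 ± 0.23. Each of these 4 cone opsins thus lay at 8.52 CPM or less in every library of 48 hpf.

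*rho*, the rod opsin, had a higher median at 48 hpf than the 4 cone opsins in each set. Low counts of opsins were present at earlier stages too. At 20 somites (20 ss) in set 1 the means, normalized over 80 libraries, were 2.18 CPM for *rho* and 2.43 CPM for *opn1lw2*. In set 1 *rho* ranged from 15.6 to 28.8 CPM (median 19.5) at 48 hpf and from 688 to 958 (median 757) at 72 hpf. In set 2 it ranged from 0 to 22.4 CPM (median 8.50) at 48 hpf and from 385 to 1247 (median 581) at 72 hpf, with replicate 6 of 48 hpf at 0. It rose by 5.58 ± 0.20 (adjusted p = 1.56e-27), so that all 5 opsins named above rose in both sets. The paralogues *opn1mw2* and *opn1lw1*, which neighbour *opn1mw1* and *opn1lw2* in RefSeq, rose too (4.73 ± 0.54 and 4.06 ± 0.78), with medians of 6.72 and 0.543 CPM at 72 hpf in set 1, and reads may be split between such copies. Of the transduction cascade, *gngt2b*, the cone transducin gamma subunit, ranged from 1.77 to 6.76 CPM (median 4.00) at 48 hpf and from 389 to 521 (median 453) at 72 hpf in set 1. Within set 2 it ranged from 0.400 to 5.75 CPM (median 3.52) at 48 hpf and from 297 to 2197 (median 677) at 72 hpf, and its log2 fold change of 7.39 ± 0.25 was the largest under the rule for named genes. In set 2 the mean of *gngt2b*, normalized over 80 libraries, was 8.49 CPM at 20 ss, above the 3.69 CPM at 48 hpf. The transducin beta subunit *gnb3b* rose by 7.20 ± 0.31, the cone alpha subunit *gnat2* by 5.63 ± 0.26 and the rod alpha subunit *gnat1* by 4.54 ± 0.25. The cone phosphodiesterase *pde6c* (4.92 ± 0.35), the opsin kinase *grk7a* (4.92 ± 0.43) and the arrestins *arr3a* (4.205 ± 0.21) and *arr3b* (4.43 ± 0.25) rose as well. *prph2b*, a peripherin of the outer segment discs, had medians of 0.130 and 23.0 CPM at 48 and 72 hpf in set 1 and of 0 and 19.7 CPM in set 2 and rose by 6.402 ± 0.39. *crx*, the transcription factor of photoreceptor precursors, rose less (0.94 ± 0.13), from medians of 42.7 and 71.7 CPM at 48 and 72 hpf in set 1 and of 37.07 and 85.7 CPM in set 2.

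**Figure D3:**
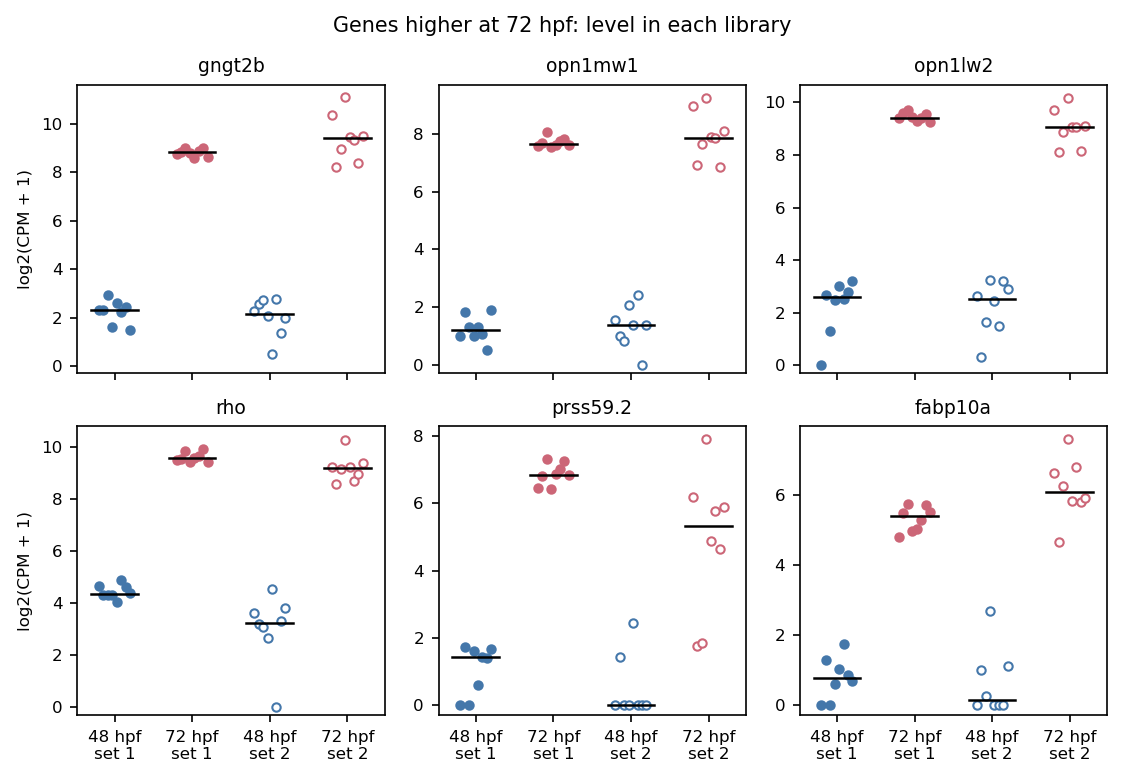
Level of 6 genes that rose, as log2(CPM + 1), in each library of 48 hpf (blue) and 72 hpf (red) of set 1 (filled) and set 2 (open), with group medians as lines. For *gngt2b*, *opn1mw1*, *opn1lw2*, *rho* and *fabp10a* every library of 72 hpf lies above all of 48 hpf within its set, and for *prss59.2* the groups of set 2 overlap.

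The lens genes changed in opposite directions in the sets. Of 58 tested members of the lens crystallin list 1 rose and 3 fell, and the median log2 fold change was 0.54 in set 1 and -0.90 in set 2. In set 1 alone 36 members were higher and 4 lower at 72 hpf, and in set 2 alone 1 was higher and 22 lower, while 26 members passed the interaction test. Of the 32 genes called in opposite directions, 19 were in this list, all of them higher in set 1 and lower in set 2. *crygm2d17*, a gamma crystallin, ranged from 1236 to 1720.0 CPM (median 1452) at 48 hpf and from 1839.7 to 2444 (median 2129) at 72 hpf in set 1. Across set 2 it ranged from 638 to 1143 CPM (median 897) at 48 hpf and from 228 to 986 (median 438) at 72 hpf. *crygn2* ranged from 1204 to 1576 CPM (median 1337) at 48 hpf and from 1429 to 1896 (median 1749) at 72 hpf in set 1. For set 2 the range was from 401 to 1044 CPM (median 873) at 48 hpf and from 128 to 800.2 (median 199) at 72 hpf, and its fold changes of 0.36 and -1.46 differed between the sets (interaction adjusted p = 9.45e-05). Crystallins make up much of the protein of the lens fibre, and the gamma crystallin copies are alike enough that reads may be split among them. The libraries of set 2 varied widely. *crybb1* stood at 550.5 CPM in replicate 1 of 72 hpf in set 2 and at no more than 4.56 CPM in the other 7, and *cryba1b* at 368 CPM against no more than 19.1. Both genes were far lower in set 2 than in set 1 already at 48 hpf. At that stage *crybb1* ranged from 1253 to 1761 CPM in set 1 and from 1.46 to 54.1 in set 2. *cryba1b* ranged from 1057 to 1505 CPM in set 1 and from 24.1 to 275 in set 2. In set 1 at 72 hpf *crybb1* ranged from 1294 to 1917 CPM. Without the 3 libraries that stood apart 1 gene rose and 3 fell. The gene that rose was *crygm2d11*, a gamma crystallin, with medians of 18.5 and 305 CPM at 48 and 72 hpf in set 1 and of 6.97 and 68.9 CPM in set 2 (3.77 ± 0.18). The 3 that fell, *lim2.1*, *lim2.3* and *lim2.4*, encode lens membrane proteins. What collection and library making contributed to this difference was not tested.

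Of the digestive organs, the exocrine pancreas changed most. Of 27 tested members of its list 7 rose and 0 fell, with a median log2 fold change of 2.68, and the list went from 0.00512 ± 0.000960% of the counts at 48 hpf to 0.0425 ± 0.0229% at 72 hpf. *prss59.2*, a trypsin gene, ranged from 0 to 2.296 CPM (median 1.67) at 48 hpf and from 85.5 to 158 (median 115) at 72 hpf in set 1. In set 2 it ranged from 0 to 4.398 CPM (median 0) at 48 hpf and from 2.35 to 238.9 (median 41.2) at 72 hpf, so that the groups overlapped there, and it rose by 6.36 ± 0.46 (adjusted p = 5.66e-16). *prss1*, also a trypsin gene, ranged from 0 to 7.69 CPM (median 4.44) at 48 hpf and from 112 to 161 (median 127) at 72 hpf in set 1. Within set 2 it ranged from 0 to 5.67 CPM (median 2.70) at 48 hpf and from 14.1 to 142 (median 50.7) at 72 hpf, and it rose by 4.67 ± 0.26. The chymotrypsinogen *ctrb1* (5.11 ± 0.42), the carboxypeptidases *cpa4* (5.61 ± 0.49) and *cpb1* (4.34 ± 0.41) and the elastase *cela1.6* (2.68 ± 0.28) rose too, and the libraries of 72 hpf in set 2 spread from 3.61 to 62.3 CPM for *ctrb1*. Without the 3 libraries that stood apart 6 genes of the list rose, and without the filter on low counts 12. In the endocrine pancreas list 2 of 18 rose and 0 fell, and without those 3 libraries 1 of 17 rose and 1 fell. The largest change among members with at least 5 CPM was that of *nkx6.1*, which was lower over both sets (-1.22 ± 0.18) but did not pass the rule. It had medians of 27.9 and 10.5 CPM at 48 and 72 hpf in set 1 and of 15.8 and 8.40 CPM in set 2. The 2 that rose include *neurod1* (0.74 ± 0.09), which is also in the neural progenitor and proneural list. In RNA of whole embryos its transcripts from the pancreas and from other cells cannot be told apart. From the same endocrine list *ins*, the insulin gene, had medians of 31.5 and 53.3 CPM at 48 and 72 hpf in set 1 and of 36.7 and 49.7 CPM in set 2 and did not pass in set 2 (0.49, adjusted p = 0.274).

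In the liver and plasma protein list, 7 of 47 tested members rose and 1 fell, with a median log2 fold change of 0.13. *fabp10a*, the fatty acid binding protein of the liver, ranged from 0 to 2.29 CPM (median 0.685) at 48 hpf and from 26.5 to 52.4 (median 40.6) at 72 hpf in set 1. Across set 2 it ranged from 0 to 5.35 CPM (median 0.0978) at 48 hpf and from 24.1 to 190.2 (median 66.8) at 72 hpf, and it rose by 5.68 ± 0.33 (adjusted p = 2.85e-19). The urate oxidase *uox* (4.39 ± 0.31), the tyrosine-degrading enzyme *hpda* (3.62 ± 0.38) and the angiotensinogen *agt* (2.53 ± 0.24) rose, and the transferrin *tfa* (0.53 ± 0.09) and the retinol carrier *rbp4* (0.78 ± 0.08) rose less. The apolipoprotein genes *apoa1b* and *apoa1a*, which had the highest levels of the list and are also made in the yolk syncytial layer, did not pass, and *apoa2* rose (0.44 ± 0.09). *apoa1b* had medians of 6096 and 5932 CPM at 48 and 72 hpf in set 1 and of 5939 and 6148 CPM in set 2 (log2 fold change 0.08 ± 0.09, adjusted p = 0.607) and *apoa1a* had a log2 fold change of -0.16 ± 0.10. *apoeb* fell (-0.61 ± 0.11). Replicates 5 and 6 of 48 hpf in set 2 were low in several liver transcripts, with 12.8 and 21.2 CPM of the vitronectin gene *vtnb* where the other 6 had at least 50.8. Without the 3 libraries that stood apart 5 members rose and 4 fell. With library totals in place of TMM 11 rose and 1 fell. Of 32 enterocyte genes 2 rose and 2 fell. They were the retinol binding protein *rbp2a* (2.64 ± 0.16) and the microvillus protein *vil1* (1.64 ± 0.25), which rose, and *apobb.1* (-0.51 ± 0.08) and *fabp1b.1* (-0.69 ± 0.11), which fell. Without those 3 libraries 2 rose and 5 fell.

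**Figure D4:**
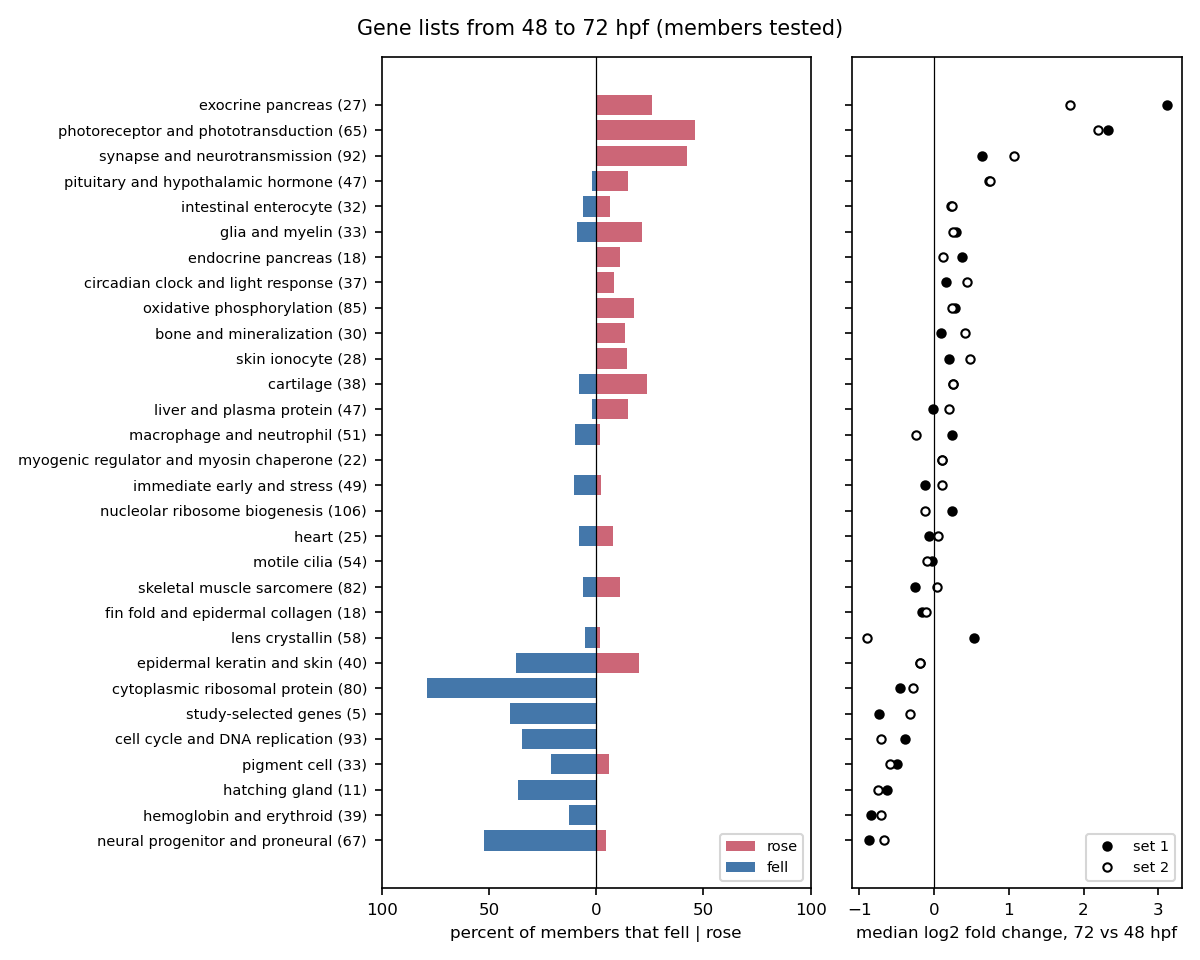
Left, percent of the tested members of each of the 30 gene lists that rose (red) or fell (blue), with the number tested in brackets. Right, median log2 fold change from 48 to 72 hpf in set 1 (filled) and set 2 (open), where the lens crystallin list lies at 0.54 and -0.90.

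Of 38 tested cartilage genes 9 rose, 3 fell and 26 did not pass, with a median log2 fold change of 0.19, and the list went from 0.264 ± 0.0313% of the counts at 48 hpf to 0.409 ± 0.0660% at 72 hpf. *matn1*, a matrilin of the cartilage matrix, ranged from 0.502 to 7.51 CPM (median 5.42) at 48 hpf and from 355 to 434 (median 392) at 72 hpf in set 1. For set 2 the range was from 0.552 to 5.84 CPM (median 2.46) at 48 hpf and from 222 to 339.7 (median 253) at 72 hpf, and it rose by 6.41 ± 0.17 (adjusted p = 1.43e-32), the largest change of the list. *col2a1a*, the main collagen of cartilage, rose (0.70 ± 0.07), with medians of 750.3 and 1146 CPM at 48 and 72 hpf in set 1 and of 362 and 619 CPM in set 2. *ucmaa* (3.56 ± 0.56), *hapln1b* (1.80 ± 0.16), *col9a1a* (1.71 ± 0.09) and *snorc* (1.39 ± 0.18) rose too. *col9a1b*, a chain of collagen IX, fell, with log2 fold changes of -0.35 in set 1 and -3.23 in set 2, and this difference passed the interaction test (adjusted p = 2.91e-08). *sox9b* and *hapln1a* were the other 2 that fell. Without the 3 libraries that stood apart 8 rose and 2 fell. Library totals in place of TMM gave 10 that rose and 0 that fell. In the bone list 4 of 30 rose and 0 fell (median 0.24), and by library totals 7 rose. *scpp5*, a secretory calcium-binding phosphoprotein gene of mineralized tissues, ranged from 0 to 0.502 CPM (median 0.130) at 48 hpf and from 36.7 to 48.4 (median 39.8) at 72 hpf in set 1 and rose by 6.54 ± 0.47. In set 2 it ranged from 0 to 3.16 CPM (median 0) at 48 hpf and from 0 to 98.5 (median 36.9) at 72 hpf, so that it was not counted in every library there. *col10a1a*, a collagen of early bone and hypertrophic cartilage, rose by 2.47 ± 0.16, with medians of 34.6 and 157 CPM at 48 and 72 hpf in set 1 and of 22.6 and 134 CPM in set 2. *col1a1a*, the gene of the list with the highest level, had a mean of 1556 ± 166 CPM at 48 hpf and 1554 ± 107 CPM at 72 hpf (SD over 16 libraries) and did not pass.

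The skin showed both directions. Of 40 tested epidermal keratin and skin genes 8 rose and 15 fell (median log2 fold change -0.18). *krt4* and *cyt1*, keratins of the outer skin layer, were the most abundant. *krt4* ranged from 11301 to 13569 CPM (median 12676) at 48 hpf and from 7984 to 9069 (median 8334) at 72 hpf in set 1. Within set 2 it ranged from 8381 to 12806 CPM (median 10638) at 48 hpf and from 6042 to 8184 (median 7100.2) at 72 hpf, and it fell by 0.60 (SE 0.05) on the log2 scale. *cyt1* changed by -0.64 ± 0.05, and *krt8*, *krt96*, *krt97*, *icn*, *icn2* and *anxa1c* fell as well. Among the genes that rose were *krt5* (0.54 ± 0.05), a keratin of basal cells, *krtt1c19e* (0.95 ± 0.06), *krt17* (1.98 ± 0.12) and *krt1-19d* (2.26 ± 0.16). *krt17* had medians of 130.4 and 576 CPM at 48 and 72 hpf in set 1 and of 87.0 and 374 CPM in set 2. Of 28 genes of skin ionocytes, cells that take up and secrete ions, 4 rose and 0 fell (median 0.20). Those that rose included the proton pump subunits *atp6v1aa* (0.59 ± 0.10) and *atp6v1f* (0.83 ± 0.11) and the calcium pump *atp2b1b* (3.13 ± 0.37). In RNA of whole embryos, transcripts of these pumps from ionocytes and from other cells cannot be told apart. Of 18 fin fold genes 0 rose and 0 fell by edgeR (median -0.16), with 3 higher and 0 lower at an unadjusted p under 0.05 in all 3 fits, 1 that rose by DESeq2 and 3 by library totals, and the fold changes of the actinodin *and2* in sets 1 and 2 were 0.46 and 0.22.

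Of the embryonic globins, *hbbe3* had the largest fall. *hbbe3* ranged from 296 to 454 CPM (median 411) at 48 hpf and from 4.05 to 11.1 (median 6.56) at 72 hpf in set 1. Across set 2 it ranged from 204 to 1116 CPM (median 942) at 48 hpf and from 8.77 to 70.6 (median 29.4) at 72 hpf, and its log2 fold change was -5.16 ± 0.26 (adjusted p = 7.09e-22). Of 39 tested hemoglobin and erythroid genes 0 rose and 5 fell, with a median log2 fold change of -0.83. The others were *hbbe1.2* (-1.30 ± 0.21), *hbae1.1* (-1.20 ± 0.18), the anion exchanger *slc4a1a* (-1.89 ± 0.20) and *tspo* (-0.83 ± 0.14). The abundant *hbbe1.3* and *hbae1.3* did not pass in set 2 (adjusted p = 0.179 and 0.0618), where their levels spread widely. *hbbe1.3* ranged from 1515 to 17579 CPM (median 8030.2) at 48 hpf and from 250.3 to 8551 (median 4866) at 72 hpf there, and the lowest library of each stage was replicate 2. The list as a whole made up 0.186 to 3.49% of the counts of a library at 72 hpf. On library totals, without TMM, 3 genes of the list fell, without the filter on low counts 8, and with a block for the replicate number 10. Of 51 macrophage and neutrophil genes 1 rose and 5 fell, with medians of 0.24 in set 1 and -0.24 in set 2. By library totals 2 fell, and in the fit with the earlier stages 3. The lysozyme gene *lyz* had medians of 87.9 and 36.1 CPM at 48 and 72 hpf in set 1 and of 181 and 42.2 CPM in set 2 and fell (-1.60 ± 0.11), and the myeloperoxidase *mpx* (-1.36 ± 0.32) and the chemokine receptor *cxcr4b* (-1.27 ± 0.26) also fell. The chemokine *ccl34b.1* rose (2.404 ± 0.27).

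Of 67 tested neural progenitor and proneural genes 35 fell and 3 rose, against 2.55% of all genes that fell, and the median log2 fold change was -0.86. For 18 of them every library of 72 hpf lay below every library of 48 hpf in both sets, against 0.664% of all genes. *neurog1*, a proneural transcription factor, ranged from 37.0 to 50.7 CPM (median 45.3) at 48 hpf and from 5.63 to 13.9 (median 8.14) at 72 hpf in set 1. For set 2 the range was from 23.8 to 48.5 CPM (median 33.3) at 48 hpf and from 2.57 to 13.5 (median 6.70) at 72 hpf, and its log2 fold change was -2.29 ± 0.16 (adjusted p = 1.80e-16). Among the members that fell were genes of Notch signaling, which holds back differentiation, chosen here after their values were seen. They were the ligands *dld* (-2.30 ± 0.18), *dla* (-1.76 ± 0.13) and *dlb* (-1.67 ± 0.11), the receptors *notch1a* (-1.76 ± 0.14) and *notch3* (-1.59 ± 0.10) and the target genes *her4.1* (-1.48 ± 0.14), *her4.2* (-1.75 ± 0.11) and *her12* (-2.09 ± 0.33). The ligand *dlc* (-0.95 ± 0.20), the receptor *notch1b* (-3.41 ± 0.90), the target gene *her4.4* and the *her* family genes *her2*, *her6* and *her9* did not pass. *notch3* had medians of 192 and 55.7 CPM at 48 and 72 hpf in set 1 and of 121 and 45.2 CPM in set 2. The progenitor factors *sox3* (-1.61 ± 0.12) and *olig2* (-1.42 ± 0.17), and *atoh7* (-1.86 ± 0.24), needed for retinal ganglion cells, fell as well, and *olig4* had the largest change of those that fell (-2.31 ± 0.26). *neurod1*, *neurod6b* and *id2a* rose, *neurod1* by 0.74 ± 0.09.

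Of 93 tested cell cycle genes 32 fell and 0 rose, with a median log2 fold change of -0.56. The changes of those that fell ran from -0.36 for *tuba8l4* to -1.15 for *ncaph*. *top2a*, a topoisomerase of dividing cells, ranged from 54.1 to 98.2 CPM (median 74.7) at 48 hpf and from 34.0 to 45.7 (median 41.7) at 72 hpf in set 1. In set 2 it ranged from 44.9 to 109.5 CPM (median 69.4) at 48 hpf and from 17.3 to 50.1 (median 33.2) at 72 hpf, and it changed by -1.005 ± 0.11 (adjusted p = 7.87e-10). The mitotic kinase *aurkb* (-1.10 ± 0.11), the proliferation marker *mki67* (-0.92 ± 0.09) and the cyclin *ccnd1* (-0.96 ± 0.08) fell in both sets. The chromatin protein *hmgn2* fell more in set 2 (-0.86) than in set 1 (-0.40, interaction adjusted p = 0.00486). *gmnn*, the member with the highest level, did not pass in set 2 (-0.16 ± 0.06). With library totals in place of TMM 23 members fell.

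Of 92 tested synapse and neurotransmission genes 39 rose and 0 fell, with a median log2 fold change of 0.94, and the list went from 0.179 ± 0.0202% of the counts at 48 hpf to 0.375 ± 0.0509% at 72 hpf. *snap25b*, of the vesicle fusion complex, ranged from 28.3 to 40.8 CPM (median 36.4) at 48 hpf and from 92.5 to 122 (median 109) at 72 hpf in set 1. Within set 2 it ranged from 12.7 to 30.4 CPM (median 23.6) at 48 hpf and from 67.5 to 118 (median 92.2) at 72 hpf, and it rose by 1.81 ± 0.10 (adjusted p = 1.09e-19). *syt5b*, a synaptotagmin, changed most (3.32 ± 0.21), with medians of 9.35 and 80.9 CPM at 48 and 72 hpf in set 1 and of 2.61 and 56.4 CPM in set 2. The vesicle proteins *sypb* (1.62 ± 0.14), *vamp2* (1.72 ± 0.27) and *syn2a* (1.09 ± 0.13), the glutamate receptor subunit *grin1b* (2.47 ± 0.15) and the neuronal sodium pump *atp1a3a* (0.93 ± 0.10) rose. The enzyme of GABA synthesis *gad2* rose by 0.63 ± 0.13. *atp1a3a* rose more in set 2 (1.28) than in set 1 (0.61, interaction adjusted p = 0.0137). In the fit that also held the earlier stages 23 members rose.

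Of 33 glia and myelin genes 7 rose and 3 fell (median 0.49). *mbpa*, a myelin basic protein gene, ranged from 0 to 1.09 CPM (median 0.496) at 48 hpf and from 17.5 to 26.5 (median 22.3) at 72 hpf in set 1. Across set 2 it ranged from 0 to 4.34 CPM (median 0) at 48 hpf and from 6.89 to 26.3 (median 12.8) at 72 hpf, and it rose by 4.85 ± 0.41 (adjusted p = 1.04e-13). The second gene *mbpb* was counted more at 48 hpf and rose less (1.82 ± 0.12), with medians of 24.3 and 91.6 CPM at 48 and 72 hpf in set 1 and of 16.5 and 47.1 CPM in set 2. The glutamate transporter *slc1a2b* rose by 0.62 ± 0.08. Its paralogue *slc1a2a* rose too, from a count of 0 in 15 of the 16 libraries of 48 hpf to a 72 hpf median of 4.74 CPM in set 1. *plp1a*, a proteolipid gene, fell (-2.06 ± 0.16). Of 33 pigment cell genes 2 rose, 7 fell and 24 did not pass (median -0.63). The genes named next were taken only from those that fell. *dct* (-1.68 ± 0.14), *tyrp1a* (-1.67 ± 0.16), *pmela* (-1.26 ± 0.10) and *pmelb* (-2.15 ± 0.27), of melanin synthesis and the melanosome, fell, and so did *gch2* (-0.78 ± 0.09), of pteridine synthesis. *dct* had medians of 95.3 and 31.3 CPM at 48 and 72 hpf in set 1 and of 65.4 and 15.9 CPM in set 2.

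In skeletal muscle 9 of 82 tested sarcomere genes rose and 5 fell, with a median log2 fold change of -0.14, and the medians of sets 1 and 2 were -0.25 and 0.05. Its share of the counts went from 13.0 to 11.9% in set 1 and from 6.01 to 7.15% in set 2, so that the sets differed more than the stages. The troponin I gene *tnni2a.1* ranged from 0 to 3.51 CPM (median 0.197) at 48 hpf and from 27.3 to 48.2 (median 43.8) at 72 hpf in set 1. For set 2 the range was from 0 to 2.59 CPM (median 0) at 48 hpf and from 22.9 to 75.5 (median 36.3) at 72 hpf, and it rose by 6.22 ± 0.34 (adjusted p = 1.59e-20). The myosin heavy chains *myhb* (4.83 ± 0.25) and *smyhc2* (3.36 ± 0.26) and the parvalbumin *pvalb2* (0.49 ± 0.06) rose. *mybpc2b*, a myosin binding protein, fell (-2.44 ± 0.18), with medians of 265 and 40.0 CPM at 48 and 72 hpf in set 1 and of 67.2 and 14.3 CPM in set 2, and so did *tnnt3a* (-0.96 ± 0.08) and *acta1b* (-0.72 ± 0.09). *actc1b*, the most abundant member, was lower in set 1 (-0.63) and did not pass in set 2 (0.25), and the difference passed the interaction test (adjusted p = 1.73e-04). Scaled by library totals alone 14 sarcomere genes rose and 2 fell. Of 25 heart genes 2 rose and 2 fell (median -0.12). *ckmt2a*, a mitochondrial creatine kinase, rose by 3.93 ± 0.25 and the atrial light chain *myl4* by 2.38 ± 0.16. *actc1a* and *fabp3* fell. *tcnba*, a transcobalamin and so of vitamin B12 transport, is in no list and was among the 12 genes that rose most, with medians of 0.262 and 48.1 CPM at 48 and 72 hpf in set 1 and of 0 and 37.3 CPM in set 2 (6.75 ± 0.33).

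Among pituitary and hypothalamic hormone genes 7 of 47 rose and 1 fell (median 0.77), and in the fit with the earlier stages 4 rose. The neuropeptide *npy* (3.64 ± 0.50), the cholecystokinin *ccka* (1.87 ± 0.35) and the prohormone-processing enzyme *cpe* (0.91 ± 0.09) rose. The growth hormone gene *gh1* had medians of 0.431 and 11.1 CPM at 48 and 72 hpf in set 1 and of 0 and 3.82 CPM in set 2 and did not pass in set 2 (adjusted p = 0.108). Of 37 clock and light genes 3 rose and 0 fell (median 0.28), namely *nr1d2a* (1.603 ± 0.22), *nr1d2b* (0.90 ± 0.19) and *rorab* (1.503 ± 0.18), nuclear receptors of the clock, and in the fit with the earlier stages 1 rose. The hour of collection was not tested. Of 49 immediate early and stress genes 1 rose and 5 fell (median 0.05), among them *btg2* (-1.42 ± 0.11) and *dusp1* (-1.38 ± 0.17). The glucocorticoid-responsive *fkbp5* was higher in set 1 (3.60) and did not pass in set 2 (0.84), and this difference passed the interaction test (adjusted p = 0.0206). *tsc22d3*, also responsive to glucocorticoids, rose (0.94 ± 0.17).

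Ribosomal protein genes changed in 1 direction and by a small amount. Of 80 tested 63 fell and 0 rose, with a median log2 fold change of -0.37, and the list went from 23.0 ± 1.02% of the counts at 48 hpf to 19.8 ± 1.55% at 72 hpf. *rps2* ranged from 5425 to 7528 CPM (median 6559) at 48 hpf and from 4645 to 5091 (median 4762) at 72 hpf in set 1. In set 2 it ranged from 3582 to 4914 CPM (median 4315) at 48 hpf and from 3133 to 4187 (median 3390.0) at 72 hpf, so that the groups overlapped there (-0.38 ± 0.05). With library totals in place of TMM 28 fell and the median was -0.21, and in the fit with the earlier stages 13 fell. Of 106 genes of nucleolar ribosome assembly 0 rose and 0 fell by edgeR and by DESeq2, with 0 higher and 2 lower at an unadjusted p under 0.05 in all 3 fits. Their medians were 0.24 in set 1 and -0.12 in set 2. Of 85 genes of oxidative phosphorylation 15 rose and 0 fell, with a median of 0.25. The muscle subunit *cox7a1* changed most (1.90 ± 0.29), with *cox4i2* at 1.62 ± 0.19 and *cox8b* at 1.33 ± 0.18, and the ATP synthase subunit *atp5f1b* rose by 0.24 ± 0.05. With library totals 45 rose, by DESeq2 24, and 7 each without the 3 libraries that stood apart, without the filter and with the earlier stages. Of 54 motile cilia genes 0 rose and 0 fell by edgeR, at an unadjusted p and by DESeq2 (median -0.12), and without the 3 libraries 1 of 53 fell. Of 22 myogenic regulators and myosin chaperones 0 rose and 0 fell by edgeR (median 0.09), with 2 higher and 1 lower at an unadjusted p under 0.05 in all 3 fits and 1 in each direction by DESeq2.

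Of the 5 genes that the study had selected, *sox9b*, *zfhx3*, *zfhx4*, *jun* and *six1b*, 0 rose and 2 fell. The paper took *Sox9* as its reference for its role in craniofacial development, and *sox9b* for a similar course in its RNA data. The others were chosen by correlation with *Sox9* in mouse embryos and with *sox9b* in zebrafish libraries of this series, and then from the literature. For zebrafish the paper writes *zfhx3b* and *cjun*, where the names used here are *zfhx3* and *jun*. The directions of the 5 genes are therefore not independent evidence. *sox9b*, a transcription factor of neural crest and cartilage, ranged from 80.4 to 123 CPM (median 103) at 48 hpf and from 56.9 to 71.8 (median 62.0) at 72 hpf in set 1. Within set 2 it ranged from 46.1 to 77.6 CPM (median 62.0) at 48 hpf and from 25.7 to 55.1 (median 42.8) at 72 hpf, and it fell (-0.66 ± 0.09, adjusted p = 2.81e-07). *zfhx3* fell (-0.61 ± 0.08), with medians of 127 and 76.9 CPM at 48 and 72 hpf in set 1 and of 89.6 and 64.8 CPM in set 2. *zfhx4* was lower in set 1 (-0.86) and did not pass in set 2 (-0.17), a difference that passed the interaction test (adjusted p = 0.0278). Without the 3 libraries that stood apart, and likewise with library totals in place of TMM, neither *sox9b* nor *zfhx3* passed the rule. *jun* (-0.27 ± 0.10) and *six1b* (-0.33 ± 0.11) did not pass, and *sox9a*, at a median of 1.00 CPM in set 1 at 48 hpf, was too low to test in set 2.

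Some of these genes were followed over the neighbouring stages, with CPM here normalized over 80 libraries. *he1.1* stood at 459 ± 36.8 CPM at 20 ss (mean ± SD of 8 libraries of set 1), 1776 ± 149.8 CPM at 24 hpf and then 818 ± 123 CPM at 48 hpf, at 8.69 ± 3.47 CPM at 72 hpf and, last, 7.01 ± 1.75 CPM at 96 hpf. The highest of these means was that of 24 hpf. *ctslb* also had its highest mean at 24 hpf, 4494 ± 474 CPM, but stood higher at 20 ss (1649 ± 133 CPM) than at 48 hpf (1219 ± 212 CPM), and had 21.3 ± 3.45 at 96 hpf. The means of *rho* were 2.65 ± 1.44 CPM at 24 hpf and 22.1 ± 4.45 at 48 hpf, then 823 ± 105 at 72 hpf and 2279 ± 237 CPM a day later. *prss59.2* went from 125 ± 28.1 CPM at 72 hpf to 1639 ± 428 at 96 hpf and *fabp10a* from 41.5 ± 10.29 to 332 ± 86.0. *matn1* had a lower mean at 96 hpf than at 72 hpf, at 306 ± 30.2 against 411 ± 25.2 CPM. These values beyond 48 and 72 hpf are a description without a test.

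**Figure D5:**
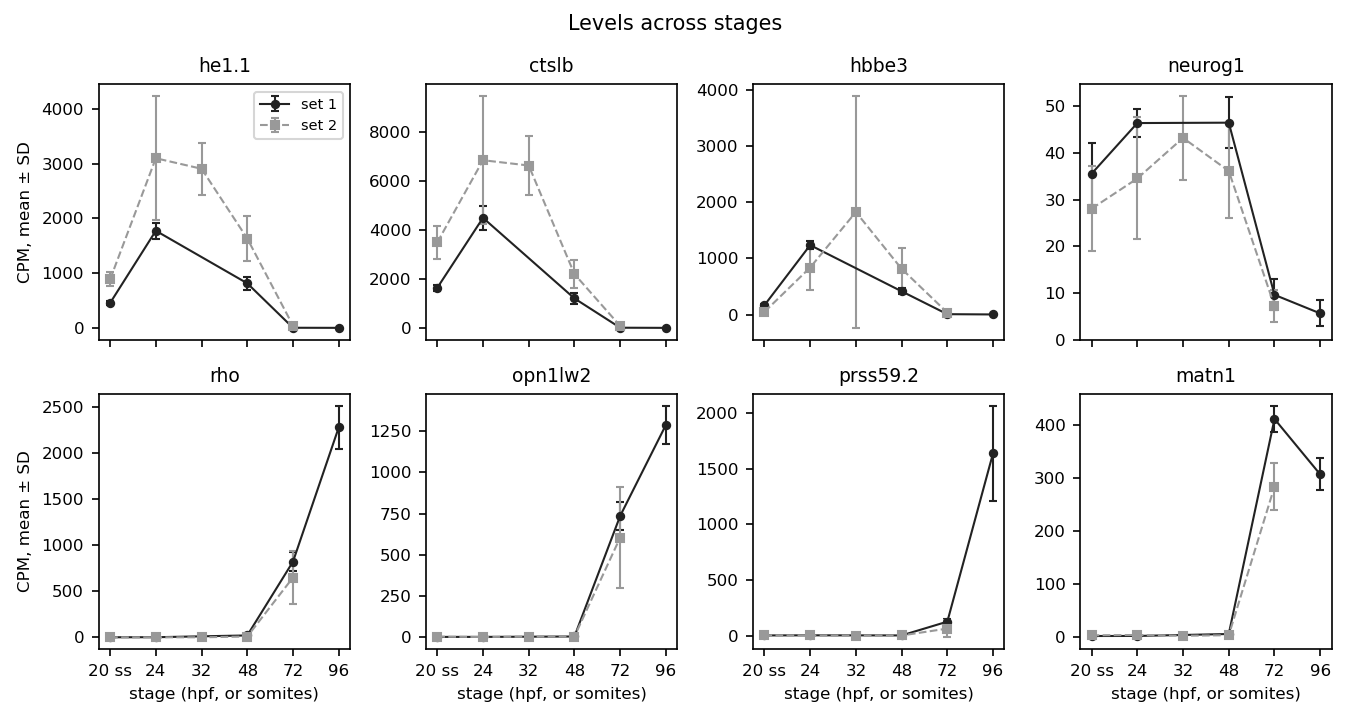
Mean level in CPM, with SD over 8 libraries, of 8 genes at 20 ss and at 24 to 96 hpf (stages are spaced evenly) in set 1 (circles) and set 2 (squares). Set 1 has no libraries of 32 hpf and set 2 none of 96 hpf, and *he1.1* and *ctslb* are highest at 24 hpf in both sets.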

How the data were processed

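Whole-embryo RNA was sequenced by Lasy-Seq, which reads the 3′ end of transcripts. Per the authors' notes, reads were trimmed with fastp 0.21.0, aligned with BWA-MEM 0.7.17-r1188 and quantified with salmon 0.12.0 (build GRCz11). The deposited values are estimated counts per gene, and every value in the columns used was whole. Strand was not used in the counting, so antisense genes cannot be told apart from their partners. A further 41 columns of the table were not used here.

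Genes counted in 8 or more libraries (minimum count 1) entered edgeR 4.0.16 (R 4.3.3, limma 3.58.1) quasi-likelihood with TMM, library set as covariate and Benjamini-Hochberg adjustment, over both sets and within each. The interaction of set and stage was fitted separately. Scripts were tested on simulated data. Alternatives were DESeq2 1.42.0, other scalings, filters, samples and a replicate block.

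The 30 gene lists, the members and the tests were chosen with earlier results of these data known. Named genes were the 12 highest and 12 lowest agreeing genes with at least 20 CPM, per list 2 by level and 1 by change with at least 5 CPM, and 6 genes of the study. Other genes were chosen after their values were seen. RefSeq (GRCz12tu) gave names and neighbours for 102 of 105 named genes. Coordinates served only to put the genes in order.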

Additional observations from a re-analysis of the deposited data

Results flagged for a closer look

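Within each group of 8 libraries, the highest and the lowest library were compared with the other 7 for every named gene whose group mean was at least 5 CPM. In 40 of 353 such pairs of gene and group 1 library stood apart by Dixon's test, where chance alone gives about 1 in 20.

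Replicate 2 of set 2 carried 11 of the 40, 6 at 72 hpf and 5 at 48 hpf. At 72 hpf it was low in *hbbe1.3* at 250.2 CPM (3752 to 8551 in the others) and *hbae1.3* at 291 CPM (2912 to 7032 in the others) and high in *apoa1b* at 7569 CPM (5916 to 6481 in the others), *fabp3* at 514 CPM (377 to 419.6 in the others), *rps2* at 4187 CPM (3133 to 3565 in the others) and *rplp1* at 4485 CPM (3485 to 3820.0 in the others). At 48 hpf it was low in *hbbe1.3* at 1515 CPM (6721 to 17579 in the others), *hbae1.3* at 1546 CPM (6251 to 15318 in the others), *fabp7a* at 615 CPM (903 to 1040.2 in the others), *pmelb* at 3.43 CPM (14.0 to 39.2 in the others) and *ins* at 11.5 CPM (27.8 to 57.5 in the others). *hbbe1.3* and *hbae1.3* were thus lowest in the library of the same number at both stages, while *hbbe3* was lowest in replicate 4 at 72 hpf in set 2. Over the genes with a mean log2 level above that of 10 CPM the deviations of the 2 libraries of replicate 2 from their group means had a correlation of 0.0295.

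Replicate 3 of 48 hpf in set 1, the library with the fewest counts of all 32, was low in *zgc:174855* at 194 CPM (313 to 437 in the others), *zgc:174154* at 72.1 CPM (100.2 to 133 in the others), *ctslb* at 755 CPM (1096 to 1453 in the others), *si:dkey-239j18.2* at 19.5 CPM (44.6 to 59.5 in the others) and *six1b* at 38.3 CPM (50.2 to 60.6 in the others). Among these are 4 genes of the cathepsin run, which may share reads. Replicate 1 of 72 hpf in set 2, with 2084479 counts, was low in *atp1a1a.1* at 68.5 CPM (126 to 148 in the others) and *ift172* at 0.428 CPM (6.51 to 18.0 in the others) and high in *crygm2d11* at 241 CPM (52.7 to 106 in the others).

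The remaining libraries had 1 to 3 such values each. Replicate 1 of 48 hpf in set 1 was low in *hbbe1.3* at 4741 CPM (5589 to 6213 in the others) and *gng3* at 104 CPM (143 to 162 in the others). Replicate 6 of 48 hpf in set 1 was low in *col2a1a* at 569.7 CPM (708 to 796 in the others) and *rsl24d1* at 220.2 CPM (279 to 329.9 in the others). Replicate 8 of 48 hpf in set 1 was low in *atp1a3a* at 107 CPM (126 to 144 in the others). Replicate 1 of 48 hpf in set 2 was low in *col17a1a* at 0 CPM (5.03 to 15.4 in the others). Replicate 4 of 48 hpf in set 2 was low in *crygn2* at 401 CPM (679 to 1044 in the others) and *cry3a* at 23.8 CPM (39.6 to 58.1 in the others). Replicate 5 of 48 hpf in set 2 was high in *slc1a2b* at 179 CPM (91.4 to 124 in the others). Replicate 6 of 48 hpf in set 2 was low in *rho* at 0 CPM (5.35 to 22.4 in the others). Replicate 1 of 72 hpf in set 1 was low in *and2* at 381 CPM (432 to 459 in the others).

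Replicate 2 of 72 hpf in set 1 was low in *ctslb* at 15.5 CPM (23.2 to 32.8 in the others) and high in *scpp5* at 48.4 CPM (36.7 to 41.2 in the others) and *hspa8* at 2377 CPM (2089 to 2212 in the others). Replicate 4 of 72 hpf in set 1 was low in *tnni2a.1* at 27.3 CPM (37.7 to 48.2 in the others) and *and1* at 267 CPM (303 to 331 in the others). Replicate 5 of 72 hpf in set 1 was high in *slc1a2b* at 242 CPM (214 to 225 in the others). Replicate 6 of 72 hpf in set 1 was high in *ddit4* at 2719 CPM (2492 to 2584 in the others). Replicate 4 of 72 hpf in set 2 was high in *rho* at 1247 CPM (385 to 668 in the others). Replicate 7 of 72 hpf in set 2 was high in *ctslb* at 155 CPM (73.0 to 99.6 in the others). Replicate 8 of 72 hpf in set 2 was high in *hmgn2* at 1944 CPM (1411 to 1599.8 in the others).

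For 12 named genes the change from 48 to 72 hpf differed between the sets by the edgeR interaction test. The difference of the log2 fold changes, set 2 minus set 1, was 1.45 for *he1.1*, 1.00 for *ctslb*, 2.34 for *he1.2*, -1.33 for *crygm2d17*, -1.82 for *crygn2*, -0.46 for *hmgn2*, 0.68 for *atp1a3a*, 0.88 for *actc1b*, 0.80 for *smyd1a*, 0.83 for *actc1a*, -2.74 for *fkbp5* and 0.69 for *zfhx4*. *actc1b* and *actc1a* encode actins of muscle, and *smyd1a* is in the list of myogenic regulators and myosin chaperones.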

How the results depend on the processing

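Of the counts over all genes, 9 moved by more than 1.5 times under an alternative. Many list counts that did so are given with the lists, and the others follow. With library totals 5 neural progenitor and 3 immediate early genes rose, and 1 heart and 1 enterocyte gene fell. With the earlier stages in the fit 2 sarcomere, 1 heart, 1 enterocyte and 1 study-selected gene fell, and 1 pigment cell gene rose. By DESeq2 2 macrophage and 2 immediate early genes rose. The replicate block gave 2 immediate early genes that rose and 1 study-selected gene that fell, as did 1 without the filter. With library totals in place of TMM 2932 genes were higher and 937 lower over both sets, and 286 fell in both, all of them among the 483. Set 2 alone gave 722 higher, 631 lower and 490 higher by at least 1 on the log2 scale. Without the filter on low counts 613 genes were lower by at least 1, against 307. With the earlier stages in the fit 397 genes rose, 372 of them among the 613. DESeq2 gave 360 genes with a difference between the sets, against 223, and left 368 adjusted p-values without a value. The cause of these moves was not tested. Leaving out the 3 libraries that stood apart, an alternative chosen after seeing the data, gave 555 genes that rose and 526 that fell, of which 499 and 444 were among those reported.

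Replicate numbers recur in all groups, and the labels do not say whether libraries of the same number belong together. Deviations of libraries with the same number had correlations of -0.0260 to 0.128, over 0.1 in 1 of 16. The own number was best in 2 of 16. Correlations over so many genes can neither show nor exclude a shared origin of such libraries. With the replicate number as a block 1783 genes were higher and 1391 lower, and 612 rose and 475 fell, 563 and 439 of them shared.

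Some named genes changed sign. In set 1 alone the log2 fold change was -0.66 for *fabp6*, -0.066 for *apoa1b*, 0.59 for *crygm2d17*, 0.36 for *crygn2* and -0.059 for *cry3a*. In set 2 alone it was 0.051 for *col1a1a*, -0.042 for *and1*, 0.16 for *paics*, 0.25 for *actc1b*, 0.20 for *smyd1a*, -0.057 for *hsp90aa1.1* and -0.12 for *ncl*. With library totals it was 0.014 for *apoa1a*, 0.067 for *crygm2d17*, 0.16 for *col1a1a*, 0.0050 for *gmnn*, 0.027 for *adcyap1b*, 0.017 for *cfap20* and 0.029 for *ddit4*. *crygm2d17* was at 0.21 without library set in the model and at 0.042 with the earlier stages. *col1a1a* was at 0.014 with DESeq2 and with RLE size factors, at 0.013 without the library of low depth and at 0.0036 with the replicate block. *apoa1b* was at -0.026 without the 3 libraries. Depth limits the genes of a few CPM most, since the shallowest library holds 1609176 counts.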
